A study of Homo sapiens with 2 samples.

Results

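The deubiquitinases described here are the ubiquitin-specific protease (USP) genes and the OTUB and OTUD genes of the OTU family, with UCHL1, UCHL3 and CYLD, measured in DLD-1 cells after an siRNA against the transcription factor YY1. Members were chosen by gene symbol: a numbered USP gene, an OTUB or OTUD gene, UCHL1, UCHL3 or CYLD. The rule found 57 genes of 17687 named on the array, each read by 1 probe set. DLD-1 is a human cell line from a colorectal adenocarcinoma. A first culture had received the YY1 siRNA Hs_YY1_1 (siYY1) and a second culture a non-targeting negative control siRNA (siControl), each at 5 nmol/L by lipofection, and RNA was taken after 3 days. The YY1 knockdown rests on a single siRNA product.

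With 1 array for each condition there is no replicate check: the differences are between 2 arrays, and neither an error nor a p-value can be attached to them. All values are on a log2 scale inferred from their range, and a difference is siYY1 minus siControl after quantile normalization, so that 1 unit is 2-fold. No level is set against that of another gene, since probe sets differ in response. The level of YY1 itself was not analysed here, so only the labels tell which culture is the knockdown. Of the epithelial markers, EPCAM, CDH1, KRT8, KRT18, CDX2 and CDH17 were bright on both arrays, while VIL1 was near the brightness minimum and CDX1, GPA33 and LGALS4 were below it. Among 16 markers of fibroblasts, leukocytes and endothelium, 3 reached the minimum on either array: COL1A2, CD14 and ENG. ENG, the one of these past 2-fold, was at 8.77 in siYY1 and 7.45 in siControl, and whether such signal bears on any deubiquitinase was not tested.

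Ubiquitin is attached to proteins by a relay of activating (E1), conjugating (E2) and ligating (E3) enzymes, and deubiquitinases cut it off again. Most USP, OTU and UCH enzymes are cysteine proteases. They rescue substrates from the proteasome, edit ubiquitin signals on histones and receptors, and return free ubiquitin to the cell's pool. YY1 is a zinc finger protein that binds many promoters close to the transcription start.

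As a family the deubiquitinases were not shifted to one side, while 5 of them differed at least 2-fold. Of the 57 members, 41 were bright enough to be compared, meaning that the higher of the 2 array values was at or above 7.50. USP24, USP34, USP22 and USP21 were at least 2-fold higher in the siYY1 array, which is 9.76% of the 41, beside 7.92% of all 8750 genes compared. USP19 alone was at least 2-fold lower, or 2.44%, beside 9.38% of all genes compared. The median difference of the 41 members was 0.00, with 21 above 0, and that of all genes compared was -0.01. The SD across members was 0.70, against 0.75 across all genes compared, and 23 of the 41 (56.1%) lay within 0.5 log2 units of 0, beside 52.2% of all genes. The share of members past 2-fold upward was thus close to the background, and that downward was below it by a count of a few genes. In a culture measured in bulk, a lower level in every cell and fewer expressing cells cannot be told apart.

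How many members lay on each side of 2-fold changed with the scaling. The values as deposited, without quantile normalization, put 3 members at least 2-fold higher (USP24, USP34 and USP22) and 3 at least 2-fold lower (USP19, USP28 and USP16). All genes compared moved the same way, with 6.13% past 2-fold upward and 12.2% past it downward, and their median was -0.13. Of the 41 members, 3 changed sign between these scalings, all of them close to 0 on both: UCHL3 at 0.00 and -0.14 as deposited, USP42 at 0.11 and -0.02, and OTUD3 at 0.10 and -0.02. USP24, USP34 and USP19 stayed past 2-fold under every scaling tried.

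**Figure D1:**
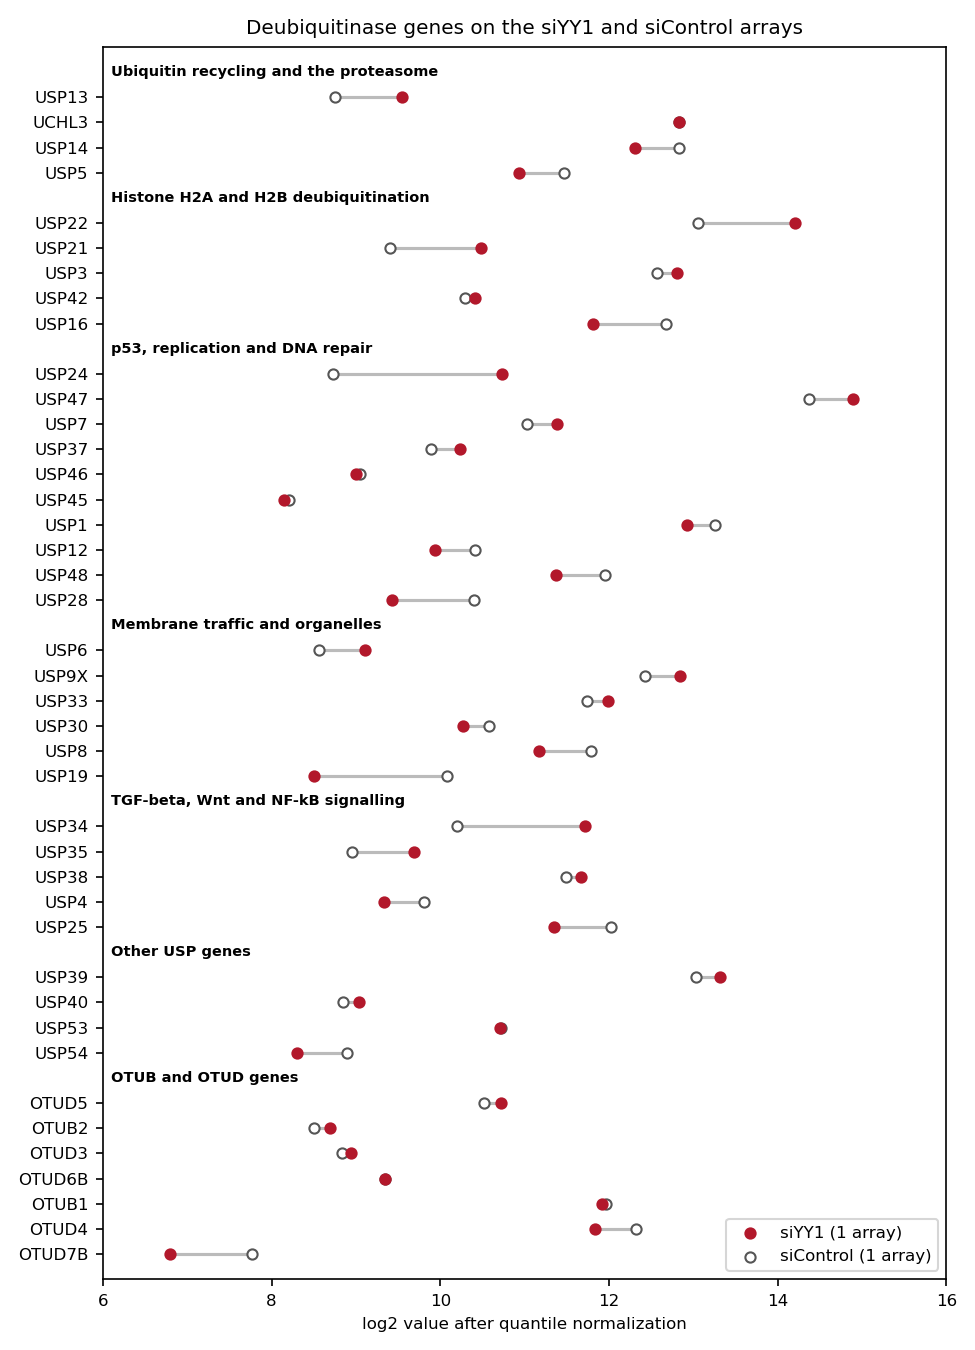
Log2 value after quantile normalization (x axis) of the 41 deubiquitinase genes compared (rows, by role), on the siYY1 array (filled) and the siControl array (open), 1 array each. The longest lines are those of USP24, USP19 and USP34, and most pairs lie close together.

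The factor knocked down binds DNA at a motif built on ATGGC, so the promoters of the members were read for it. Promoter windows from RefSeq (GRCh38.p14), 250 bases before to 50 after a gene's start, were given for 45 of the 57 members and 35 of the 41 compared, with 1 or more windows a gene. The letters AANATGGCG, on either strand, were in a window of 6 of the 35 (17.1%, Wilson 95% interval 8.10 to 32.7, counting error only). Of 7387 genes compared that had a window, 9.41% held it, and so did 3.19% of all 35116 windows given. Over the 45 members with a window, bright or dim, the share was 13.3%, since no dim member held it. The 6 sites are shown because they include those of USP34 and USP21, which were among the 4 members at least 2-fold higher. Each is printed along the gene's own strand, with the matched letters in capitals and 16 bases on either side, from the largest difference to the smallest:
USP34: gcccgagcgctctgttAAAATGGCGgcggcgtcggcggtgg
USP21: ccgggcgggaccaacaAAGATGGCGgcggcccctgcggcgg
USP47: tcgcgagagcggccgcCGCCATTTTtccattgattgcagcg
USP7: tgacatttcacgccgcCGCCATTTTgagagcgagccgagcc
USP40: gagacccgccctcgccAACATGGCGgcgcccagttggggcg
OTUB1: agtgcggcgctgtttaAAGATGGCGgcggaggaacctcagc

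In USP34, USP21, USP40 and OTUB1 the motif ran along the gene's strand and began between base 17 and base 25 after the start. In USP7 and USP47 it lay on the opposite strand, with its leftmost base at 16 and at -44. Of the last 4 genes printed, the windows are chr2:233566733-233567032 on the minus strand for USP40, chr11:63986188-63986487 on the plus strand for OTUB1, chr16:8963857-8964156 on the minus strand for USP7 and chr11:11841722-11842021 on the plus strand for USP47. The whole windows of USP34 (chr2:61471038-61471337, minus strand) and USP21 (chr1:161159250-161159549, plus strand), in GRCh38.p14, show the site within the last stretch after the start, again in capitals:
USP34: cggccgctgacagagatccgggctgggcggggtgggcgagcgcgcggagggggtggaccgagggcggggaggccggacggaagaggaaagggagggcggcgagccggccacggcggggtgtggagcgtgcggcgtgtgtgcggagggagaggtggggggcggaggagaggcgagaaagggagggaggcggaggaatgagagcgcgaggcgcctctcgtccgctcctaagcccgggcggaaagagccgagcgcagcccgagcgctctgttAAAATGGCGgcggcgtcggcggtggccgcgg
USP21: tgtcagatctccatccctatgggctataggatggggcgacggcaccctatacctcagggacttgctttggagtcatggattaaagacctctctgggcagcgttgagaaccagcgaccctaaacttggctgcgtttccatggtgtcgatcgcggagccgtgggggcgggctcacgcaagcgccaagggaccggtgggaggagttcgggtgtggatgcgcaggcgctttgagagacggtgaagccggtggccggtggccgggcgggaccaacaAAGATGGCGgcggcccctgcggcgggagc

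Among the 6 members that held the motif, 5 were above 0 and the median difference was 0.44, beside 12 above 0 and a median of -0.06 for the 29 members with a window that lacked it. The 6 differences were 1.52 for USP34, 1.08 for USP21, 0.53 for USP47, 0.36 for USP7, 0.19 for USP40 and -0.05 for OTUB1. No such gap was seen over all genes compared: the 695 holding the motif had a median of 0.01 and the 6692 lacking it one of -0.02. At least 2-fold higher were 7.48% of those holding it and 7.59% of those lacking it. The shorter letters ANATGGC, which the longer motif contains, were in a window of 12 of the 35 members (34.3%) and 21.2% of the 7387 genes, with medians of 0.08 in members holding them and -0.01 in members lacking them. USP24, USP22 and USP19, the other members past 2-fold, differ in this: USP24 had no window given here, and in the windows of USP22 and USP19 neither set of letters occurred.

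Of the enzymes that recycle ubiquitin or serve the proteasome, 4 were compared and none passed 2-fold. USP13, a close relative of USP5, was at 9.55 in siYY1 and 8.75 in siControl, a difference of 0.80. USP5, which takes apart unanchored ubiquitin chains, was at 10.93 in siYY1 and 11.47 in siControl, so this pair of relatives lay on opposite sides of 0. USP14, which binds the proteasome's regulatory particle and trims chains there, was at 12.31 in siYY1 and 12.84 in siControl. UCHL3, which matures ubiquitin precursors, stood at 12.84 in siYY1 and 12.83 in siControl, with no visible difference. UCHL1, the neuronal relative of UCHL3, was dim on both arrays.

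Of the 5 deubiquitinases of histones H2A and H2B compared, 2 were at least 2-fold higher (40%, beside 7.92% of all genes compared) and 0 lower. With each array centred on its median, 0 were higher by that much and 1 was lower. USP22, the catalytic subunit of the deubiquitinating module of the SAGA coactivator, was at 14.21 in siYY1 and 13.06 in siControl, 2.21-fold higher. USP21, which acts on H2A and whose promoter is printed above, was at 10.48 in siYY1 and 9.40 in siControl, 2.12-fold higher. Both lay close to the threshold: as deposited USP22 differed by 1.001 and USP21 by 0.96, and with each array centred on its median the log2 differences were 0.93 for USP22 and 0.89 for USP21, below the threshold of 1. USP16, an H2A deubiquitinase needed for progress through mitosis, went the other way, at 11.81 in siYY1 and 12.68 in siControl. USP3, which acts on H2A and H2B, was at 12.80 in siYY1 and 12.57 in siControl. For USP42, which acts on H2B and on p53, the values were 10.41 in siYY1 and 10.29 in siControl. The other 4 in this role, USP27X, USP44, USP49 and USP51, were dim. USP27X and USP51 are the closest relatives of USP22.

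The p53, replication and repair members held the largest difference of the family. USP24, a very large enzyme that acts on DNA damage response proteins, was at 10.74 in siYY1 and 8.73 in siControl, 4.01-fold higher. Of the 8750 genes compared, 99.4% had a lower difference than USP24, which ranked 54 from the top. USP28, which stabilises MYC, was at 9.43 in siYY1 and 10.39 in siControl, a difference of -0.97 that passed 2-fold as deposited, at -1.09. USP48, which opposes BRCA1-dependent ubiquitin on H2A, was at 11.37 in siYY1 and 11.96 in siControl. Each member was listed under a single role, so USP48 was not counted with the histone deubiquitinases above.

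In the same role, USP47, which acts on the repair polymerase beta, was at 14.89 in siYY1 and 14.37 in siControl. USP7, which deubiquitinates both MDM2 and p53, was at 11.39 in siYY1 and 11.03 in siControl, and USP37, which acts on cyclin A, at 10.23 in siYY1 and 9.89 in siControl. These 3 were higher in siYY1, all by less than 1.5-fold. USP1, USP12 and USP46 share the activating partner WDR48. USP1, which removes ubiquitin from FANCD2 and PCNA, was at 12.92 in siYY1 and 13.26 in siControl. USP12 was at 9.93 in siYY1 and 10.41 in siControl, while its near relative USP46 was at 9.01 in siYY1 and 9.04 in siControl. USP45, which acts on the repair protein ERCC1, was nearly level, at 8.15 in siYY1 and 8.21 in siControl. USP2 and USP29 were dim.

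The lowest member belonged to the group of membrane traffic and organelles. USP19, which has a form anchored in the endoplasmic reticulum, was at 8.50 in siYY1 and 10.08 in siControl, 2.98-fold lower, and 2.46% of the genes compared had a lower difference. USP8, which deubiquitinates receptors at endosomes, was at 11.17 in siYY1 and 11.78 in siControl. USP30, which sits in the mitochondrial outer membrane and opposes the ligase parkin, was at 10.27 in siYY1 and 10.57 in siControl. So 3 of the 6 members of this group were lower. The others were higher by less than 1.5-fold: USP9X, an X-linked enzyme with many substrates, was at 12.84 in siYY1 and 12.43 in siControl, and USP33, first found as a partner of the VHL protein, at 11.99 in siYY1 and 11.74 in siControl. USP6, a hominoid gene known as an oncogene in bone cysts, was at 9.11 in siYY1 and 8.56 in siControl. It is near-identical to part of USP32, so its probe set can share signal and its value is uncertain. USP20 was dim.

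Among members named for TGF-beta, Wnt and NF-kB signalling, only USP34 passed 2-fold. USP34, which stabilises axin in the Wnt pathway, was at 11.72 in siYY1 and 10.20 in siControl, 2.87-fold higher and at rank 193 from the top. USP35 was at 9.69 in siYY1 and 8.95 in siControl, and its relative USP38 at 11.67 in siYY1 and 11.49 in siControl, so both were above 0. USP25, the relative of USP28, was at 11.35 in siYY1 and 12.03 in siControl, on the same side as USP28. USP4, which acts on the type I TGF-beta receptor, was at 9.33 in siYY1 and 9.81 in siControl. CYLD, the tumour suppressor that removes chains from NF-kB signalling proteins, had 7.10 in siYY1 and 7.30 in siControl, just below the brightness minimum, and was not compared. OTUD7B, at 7.77 on its brighter array, was the member nearest above that minimum. USP31 was dim.

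Of the remaining USP genes, none passed 2-fold. USP39, a splicing factor without catalytic activity, was at 13.32 in siYY1 and 13.03 in siControl. USP54 was at 8.30 in siYY1 and 8.89 in siControl, the farthest from 0 here at -0.60. USP40, whose promoter holds the motif, was at 9.03 in siYY1 and 8.84 in siControl. USP53, linked to tight junctions, was level at 10.71 in siYY1 and 10.72 in siControl. USP26, USP43 and USP50 were dim.

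No OTUB or OTUD gene passed 2-fold after quantile normalization. Of these 10 members of the OTU family, 7 were compared, 6 of them lay within 0.5 log2 units of 0, and the median was -0.0047. OTUD7B, known as Cezanne and a negative regulator of NF-kB, was at 6.80 in siYY1 and 7.77 in siControl, a difference of -0.97. It passed 2-fold downward with each array centred on its median, at -1.03, and with the trend on genomic span removed, at -1.11. Its siYY1 value was below the brightness minimum, so the size is uncertain. OTUD4, a scaffold in alkylation repair, was at 11.83 in siYY1 and 12.32 in siControl. OTUB1, which restrains ubiquitin-conjugating enzymes without cutting ubiquitin, was at 11.92 in siYY1 and 11.97 in siControl, with the motif in its promoter. OTUB2 was at 8.69 in siYY1 and 8.51 in siControl. OTUD5, a regulator of interferon signalling, was at 10.72 in siYY1 and 10.52 in siControl. OTUD3 was at 8.94 in siYY1 and 8.84 in siControl, and OTUD6B was at 9.35 on both arrays. OTUD1, OTUD6A and OTUD7A were dim.

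**Figure D2:**
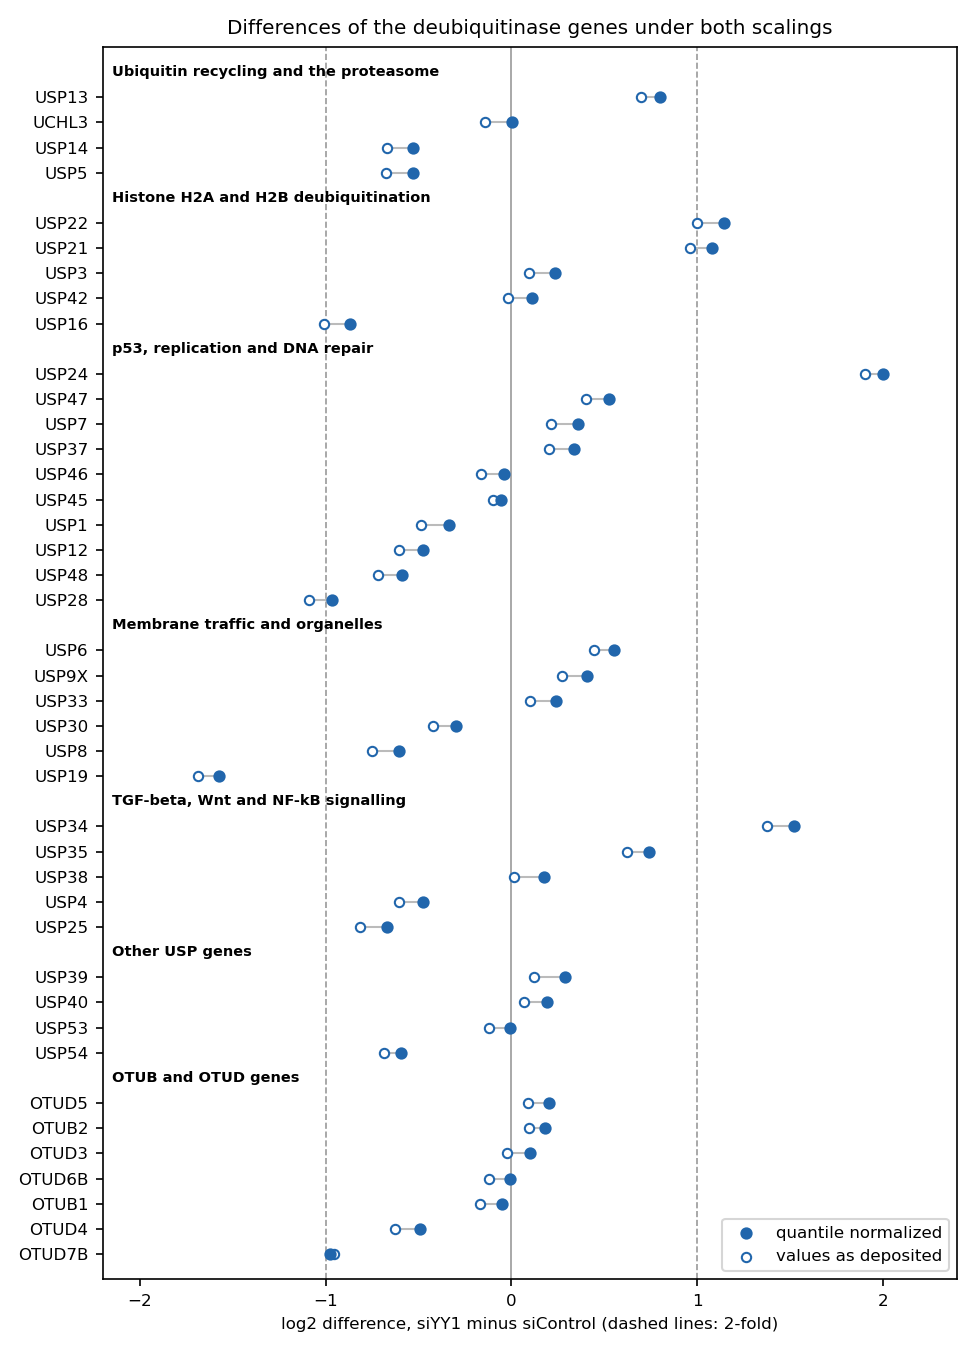
Log2 difference, siYY1 minus siControl (x axis), of the 41 deubiquitinase genes compared (rows, by role), after quantile normalization (filled) and as deposited (open), with dashed lines at 2-fold. As deposited all points but that of OTUD7B lie further left, and USP21 drops below 2-fold while USP28 and USP16 pass it downward.

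The 16 dim members are given by their range only. Their differences ran from -0.76 for USP31 to 0.85 for OTUD7A, none reached 2-fold, and their brighter value was at most 7.30. As deposited, OTUD7A differed by 1.03, from values of 5.63 in siYY1 and 4.599 in siControl. Of all 8499 protein-coding genes below the minimum, 1.21% passed 2-fold upward and 1.85% downward.

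USP24 and USP34 are among the members with the widest genomic spans, and genes of wide span were higher on this array. By RefSeq (GRCh38.p14), the span from first to last base was 149006 bases for USP24 and 283625 for USP34, both in the widest decile of the genes compared. In that decile the median difference of all 875 genes was 0.22 and 17.0% were at least 2-fold higher. Of the 4 members in it, USP9X was at 0.41 and USP25 at -0.67, so these did not share one direction. The 10 members in the next decile had a median of -0.14, against 0.13 for all genes there. USP21, at 6224 bases, and USP22, at 43824, lay in deciles with medians of -0.04 and -0.05. The members were long as a whole, with a median span of 64.9 kb against 32.1 kb for all genes compared. Across the 41 members, span and difference had a Spearman rho of 0.12, and across all genes compared 0.09, both given as a description of these 2 arrays. With the trend on span removed, USP24 was at 1.85, USP34 at 1.30, USP22 at 1.22 and USP21 at 1.14. The decile medians ran only from -0.10 to 0.22, so this removal could move a difference little. The part of span in these differences was not tested.

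**Figure D3:**
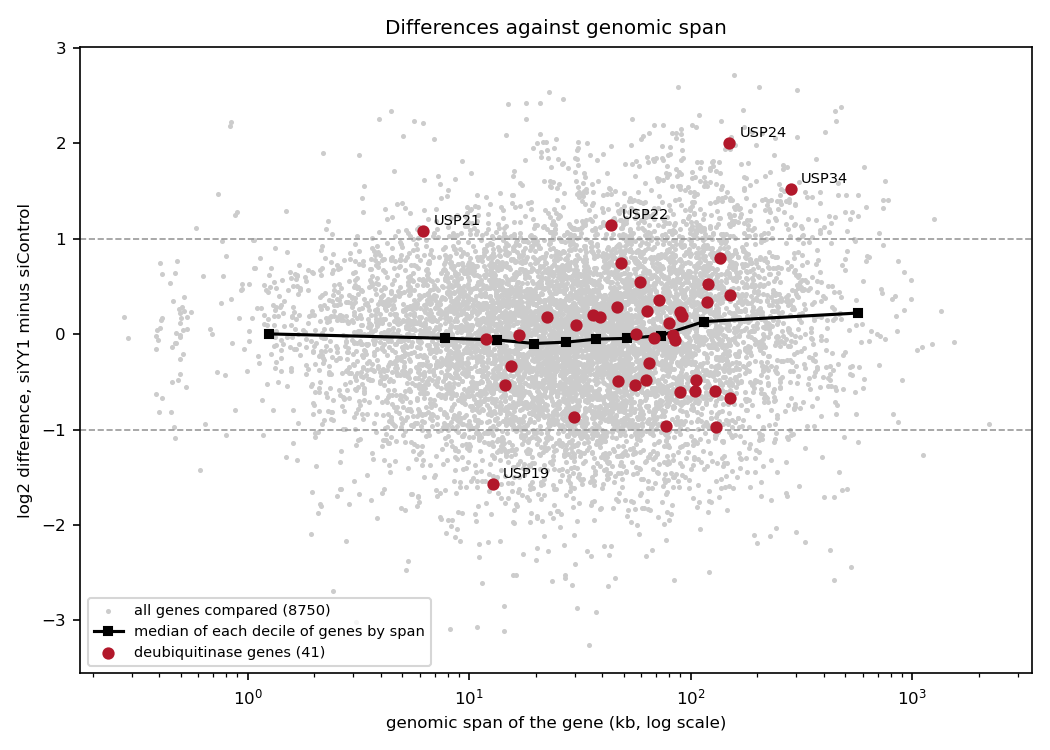
Log2 difference, siYY1 minus siControl (y axis), against genomic span in kb (x axis, log scale), for all 8750 genes compared (grey), the 41 deubiquitinase genes (red) and the median of each decile of genes by span (black squares, at the middle of the decile on the log scale). USP24 and USP34 lie in the widest decile, whose median is 0.22, while USP21 and USP22 lie in deciles with medians just below 0.

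Deubiquitinases that the symbol rule did not take, and some relatives, are set beside the members in 2 lists. Of 10 JAMM metalloproteases and relatives, 1 (10%) was at least 2-fold lower and none higher, with a median of 0.00. Over all genes compared, 9.38% were lower by that much and 7.92% higher. BRCC3, which cuts chains in the BRCA1-A and BRISC complexes, was at 10.56 in siYY1 and 12.46 in siControl, 3.74-fold lower. The proteasome's own deubiquitinase PSMD14 was at 12.80 in siYY1 and 12.995 in siControl. The second list holds other cysteine deubiquitinases and relatives, OTU enzymes with other symbols among them. Of its 13 genes compared, 2 (15.4%) were at least 2-fold lower and none higher, with a median of -0.29. YOD1, an OTU enzyme that works with the segregase VCP, was at 7.86 in siYY1 and 9.74 in siControl, 3.67-fold lower. USPL1, listed as a relative though it acts on SUMO, was at 8.59 in siYY1 and 9.83 in siControl, 2.38-fold lower.

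Cofactors of deubiquitinases leaned above 0, with genes past 2-fold on both sides. Of 21 compared, 15 were above 0 (71.4%, beside 49.5% of all genes compared), with a median of 0.31. Under the 4 scalings tried that median ran from 0.12 to 0.34. Past 2-fold were 2 upward and 2 downward, 9.52% each, beside 7.92% and 9.38% of all genes compared. HCFC1, the partner through which BAP1 meets YY1, was at 12.09 in siYY1 and 10.13 in siControl, 3.88-fold higher. BABAM2, a subunit of the BRCC3 complexes, was 2.35-fold higher, at 12.91 in siYY1 and 11.68 in siControl, opposite to BRCC3. Another subunit, ABRAXAS1, differed by -0.77. BABAM2 spans 450193 bases, in the widest decile of span described above, and the part of span in its difference was not tested. Beside USP22, its SAGA module partner ATXN7 was just under 2-fold higher, at 11.30 in siYY1 and 10.32 in siControl, and ENY2 was at 12.24 in siYY1 and 12.07 in siControl. ATXN7L3B, which competes for ENY2, was 2.56-fold lower, at 9.50 in siYY1 and 10.85 in siControl. WDR48, the partner of USP1, USP12 and USP46, was at 9.94 in siYY1 and 9.85 in siControl. ADRM1, the proteasome's ubiquitin receptor that recruits UCHL5, was 2.39-fold lower, at 11.18 in siYY1 and 12.44 in siControl.

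Among lists of genes for attaching ubiquitin or related modifiers, medians lay on both sides of 0. The list of ubiquitin genes and activating enzymes also takes in enzymes that activate NEDD8 and SUMO. Of its 6 genes compared, 3 were at least 2-fold lower (50%, beside 9.38% of all genes compared), with a median of -0.95. UBA1, the main ubiquitin-activating enzyme, was at 11.75 in siYY1 and 13.55 in siControl, 3.47-fold lower. UBA6, the second such enzyme, was at 8.50 in siYY1 and 10.10 in siControl, 3.03-fold lower, and UBA3, which activates NEDD8, was 2.25-fold lower. NAE1, the partner of UBA3, differed by -0.73 and SAE1, which serves SUMO, by -0.68. The polyubiquitin gene UBB was the one member above 0, at 16.18 in siYY1 and 15.55 in siControl.

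Conjugating enzymes leaned the other way, with 21 of 26 above 0 and a median of 0.41, where 49.5% of all genes compared were above 0. At least 2-fold higher were 5 of the 26 (19.2%, beside 7.92% of all genes), and 0 were lower by that much (beside 9.38%). BIRC6, a giant conjugating enzyme that inhibits apoptosis, was 3.42-fold higher, at 12.10 in siYY1 and 10.33 in siControl. UBE2R2, which serves cullin ligases, was 3.14-fold higher, UBE2S, which extends chains for the anaphase-promoting complex, 2.84-fold and UBE2E3 2.39-fold. The fifth gene, UBE2Q1, was 2.07-fold higher, at 11.59 in siYY1 and 10.55 in siControl, and fell short of 2-fold as deposited, at 0.92. UBE2E2 differed by -0.86, and by -1.001 as deposited, so that the deposited values gave 4 conjugating enzymes higher and 1 lower. Of 21 HECT ligases, 3 passed 2-fold upward (14.3%, beside 7.92% of all genes) and 2 downward (9.52%, beside 9.38%). Their median was -0.11. As deposited 3 passed upward and 3 downward, with HERC1 at -1.01, and with each array centred on its median 2 passed upward and 3 downward. HERC2, a giant ligase of the DNA damage response, was 4.32-fold higher, at 8.95 in siYY1 and 6.84 in siControl. It was compared only through its siYY1 value, since its siControl value was below the brightness minimum, so the size is uncertain. HUWE1 was 2.65-fold and HERC5 2.16-fold higher, while G2E3 was 2.32-fold and HERC3 2.22-fold lower. Of the conjugating enzymes and HECT ligases compared, 12 lay in the widest decile of span described above, 5 above 0 and 7 below. BIRC6, HERC2 and HUWE1 were at least 2-fold higher and HERC3 was lower by that much, while UBE2E2 and HERC1 were also below 0, and the part of span in these differences was not tested. Of 13 cullin ligase scaffolds only RNF7, a RING subunit, passed 2-fold, downward (7.69%, beside 9.38% of all genes). Its values were 11.62 in siYY1 and 12.91 in siControl. The median of the activating list was below 0 and that of the conjugating list above 0 under each of the 4 scalings tried, at -1.17 to -0.95 and 0.19 to 0.41. No test set the lists against each other or against the deubiquitinases.

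**Figure D4:**
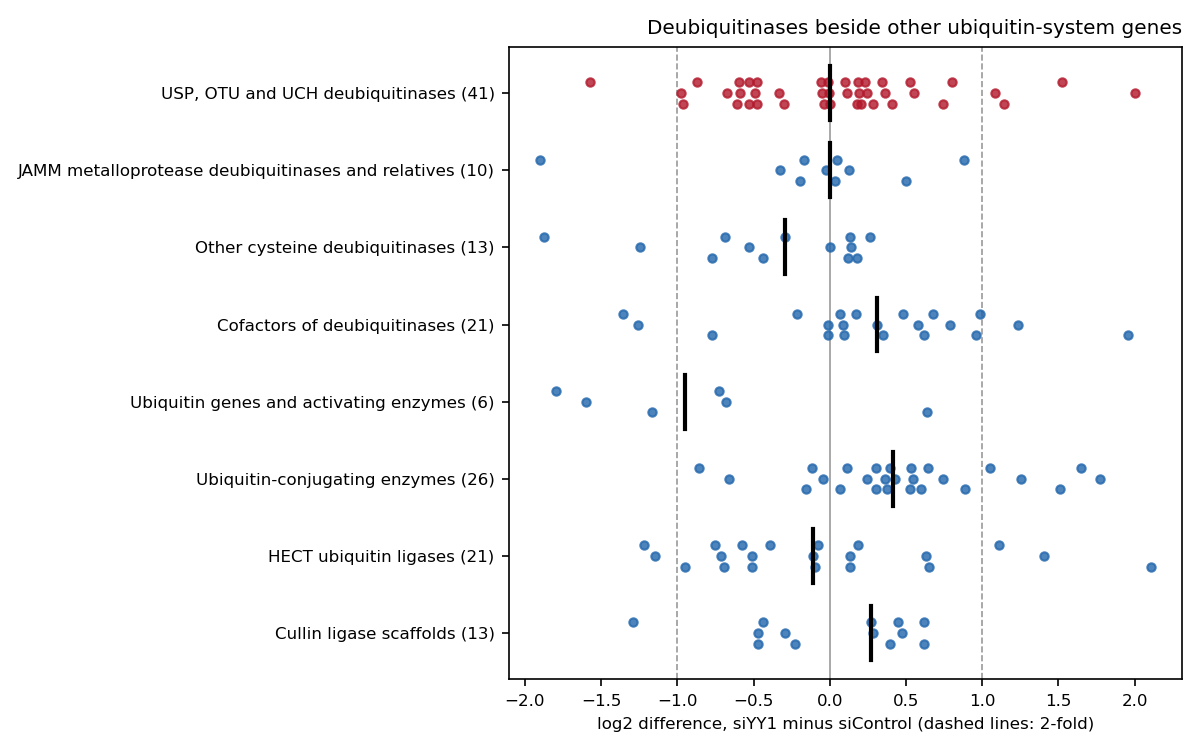
Log2 difference, siYY1 minus siControl (x axis), of each gene compared in the deubiquitinase family (red) and in 7 other lists of the ubiquitin system (blue), with the number of genes in parentheses, black bars at medians and dashed lines at 2-fold. The deubiquitinases are centred at 0.00 and the conjugating enzymes at 0.41. The list of ubiquitin and activating enzyme genes (those for NEDD8 and SUMO included) is centred at -0.95, while its ubiquitin gene UBB is at 0.64.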

How the data were processed

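Total RNA from both DLD-1 cultures was labelled with biotin as sense-strand cDNA for a whole-transcript array, per the labels' protocols. How the authors made the deposited log2 values is not stated: for software, background correction and normalization, nothing is given in the sources used here. That they are log2 was inferred from their range of 2.51 to 17.92. The 25th percentile was 0.18 higher on the siYY1 array than on the siControl array, the median 0.07 higher and the 75th percentile lower, at -0.13, so the pair was quantile normalized over all 21448 probe sets.

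The platform annotation gave 1 gene symbol for 17709 probe sets. The rest are unnamed here. Symbols, gene type and span came from RefSeq (GRCh38.p14) through the gene ID, which matched all 17709, and the 20 genes with several probe sets were averaged. Their probe sets differed by a median of 0.38 in log2 difference. Genes compared were protein coding with the higher value at or above the median over genes.

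With 1 array a group no test was run, and genes were counted at 2-fold. Members and lists were chosen with earlier results of these data known. All members bright enough are named, and of the other lists those past 2-fold, up to 4 each way, and a few more named after their values were seen. A further conjugating enzyme, UBE2Q1, was named so that none was left out. A further family member is not reported here, nor are symbols of the lists that no named probe set carried. Motif letters were searched as exact text on both strands. The counting was checked on simulated data with large planted differences and little noise, which tests the code and not the reliability of these arrays. Computations used pandas 2.3.3 and numpy 2.4.6 under Python 3.11.15, with lowess from statsmodels 0.14.6, intervals from scipy 1.17.1 and plots from matplotlib 3.10.9.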

Additional observations from a re-analysis of the deposited data

How the results depend on the processing

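No paired analysis was possible because each group had a single array, and for the same reason no array could be left out. The median of the members stayed between -0.17 and 0.11 under the 11 alternatives tried, and its sign depended on the setting. With each array centred on its median it was -0.17, beside -0.20 for all genes compared. As deposited it was -0.10, beside -0.13. For the USP genes and CYLD alone it was 0.11, beside -0.01 for all genes compared. Against 4 members at least 2-fold higher and 1 lower, centring each array on its median gave 2 higher and 4 lower (5.03% and 14.3% of all genes). The values as deposited gave 3 higher and 3 lower (6.13% and 12.2%). Removal of the span trend, added after the data were seen, gave 4 higher and 2 lower (7.81% and 8.82%). A minimum at the 75th percentile of brightness left 23 members, with 3 higher (8.3% of all genes) and 0 lower (8.69%). USP21 and USP19 were not among those 23. At 1.5-fold there were 6 higher (19.4% of all genes) and 8 lower (21.8%), and at 3-fold 1 higher, USP24 (1.89%), and 0 lower (2.43%). The shorter motif was in the promoters of 26.7% of the 45 members, against 13.3% for the longer one. Loess (8% and 9.19% of all genes) and the mean of the arrays as filter (7.64% and 8.64%) kept 4 higher and 1 lower. So did deposited values relative to the median of the genes compared (8.31% and 8.85%), added after the data were seen. Further settings gave that count but could not change it. Each member had 1 probe set, so the brightest was the same one. No brightness filter, the USP genes and CYLD alone, and leaving out USP6 only added or dropped members short of 2-fold. Leaving out USP6 was added after the data were seen. Without the filter there were 57 members, beside 4.61% and 5.67% of all genes. No called member changed sign. The planned removal of a trend on protein length was not run, since protein lengths were not used here. With single arrays the number of arrays limits every value.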
